A study of Mus musculus with 16 samples.

Results

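Nuclear factor I (NFI) proteins are a family of transcription factors encoded in the mouse by Nfia, Nfib, Nfic and Nfix. Chromatin accessibility at these genes was compared between non-neuroendocrine (non-NE) and neuroendocrine (NE) small cell lung cancer (SCLC) cells. A listed peak was taken as an NFI peak when the protein-coding start site nearest to its centre belonged to 1 of the 4 member genes, which gave 101 NFI peaks of 80367 listed peaks. The cells of both groups came from lung tumors of TKO;Hes1GFP/+ mice. In these mice, floxed Rb, p53 and p130 alleles are deleted by an adenovirus that drives Cre from the CMV promoter. Deletion in the sorted cells was not checked here. Tumors were induced in young adult mice and collected some months later, and GFP reports the endogenous Hes1 locus, a Notch target. GFPhigh cells are the non-NE and GFPneg cells the NE population, each sorted from the pooled tumors of a mouse, and 4 libraries per group came from 3 mice, of which 1 gave 2 pairs. Each of the 8 libraries was run on 2 lanes, which makes 16 runs.

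NFI proteins bind DNA as dimers at a palindrome of TTGGC and GCCAA, and more weakly at a single arm of it. NFIA is known for driving the switch to glia in the nervous system, NFIB for lung maturation and for promoting an open chromatin state and metastasis in SCLC, NFIC for tooth root formation and NFIX for muscle and neural stem cell programs. ATAC-seq marks DNA that the Tn5 transposase can reach, such as promoters and enhancers, and a peak is a region of many insertions.

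Each listed peak had passed the limits of the authors' comparison of the groups, as more opened or more closed in GFPhigh than in GFPneg cells. Each also has the authors' mean normalized count, a mean over all libraries of both groups, which gives the level of a peak and not its direction. The tables used here hold no value per library, so no SD, n or test stands beside a value, and the depth of the libraries is unknown. Intervals given for shares are 95% Wilson intervals, which cover counting error only, and peaks of 1 gene are not replicates.

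The labels were first set beside marker genes. Peaks of the non-NE (club cell) markers Scgb1a1, Scgb3a2, Cyp2f2 and Hes1 were opened in 46 of 60 cases, where 50.8% of all listed peaks were opened, and in 20 of 23 without Hes1, the locus that carries the GFP reporter. Those of the NE markers Chga, Chgb, Resp18, Uchl1, Ncam1 and Syp were closed in 25 of 36, where 49.2% of all listed peaks were closed, with 8 of the 14 Chga peaks opened and no listed peak for Syp. Markers of other cell types had 11 opened and 10 closed peaks for leukocytes (52.4% opened) and 10 and 13 for fibroblasts (43.5%). Those of endothelium had 12 and 43 (21.8%), a lower opened share than the 30.6% of the NE markers. Single genes gave many of these peaks, with 11 opened and 5 closed for Ptprc, 2 and 23 for Cdh5 and 7 and 0 for Col1a1. The part of these cell types in the results below was not tested. For the sort, tumor cells were stained for CD45, CD31 and TER-119, which mark leukocytes, endothelium and red blood cells.

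The regions on which the results turn are shown first. They are listed peaks of highest level of Nfia, Nfib and Nfix and, for Nfib and Nfic, a peak at a start, read on the strand of the gene (plus for Nfia, minus for the others) from mm10 (GRCm38), up to 240 bases in the middle of the peak or of its longest stretch outside annotated UTRs. Capitals mark an exact match to the NFI, FOX, AP-1, TEAD, NKX2 or RBPJ strings described further on, and a sequence without capitals has none of them.
Nfia opened, intron, chr4:98004025-98004264: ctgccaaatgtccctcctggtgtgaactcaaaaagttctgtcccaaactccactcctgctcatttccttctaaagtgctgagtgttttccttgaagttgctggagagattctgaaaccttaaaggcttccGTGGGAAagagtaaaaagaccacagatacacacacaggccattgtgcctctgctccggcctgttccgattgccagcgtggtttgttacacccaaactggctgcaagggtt
Nfib opened, intron, chr4:82304466-82304705: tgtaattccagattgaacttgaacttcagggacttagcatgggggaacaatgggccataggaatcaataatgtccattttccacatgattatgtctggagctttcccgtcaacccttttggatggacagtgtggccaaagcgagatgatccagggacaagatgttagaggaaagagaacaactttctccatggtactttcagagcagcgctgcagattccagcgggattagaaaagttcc
Nfib closed, upstream, chr4:82516465-82516704: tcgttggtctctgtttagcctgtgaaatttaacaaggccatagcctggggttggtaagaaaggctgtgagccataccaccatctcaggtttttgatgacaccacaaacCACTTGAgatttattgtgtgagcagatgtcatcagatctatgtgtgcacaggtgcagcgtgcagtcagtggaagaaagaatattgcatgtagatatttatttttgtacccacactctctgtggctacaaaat
Nfib opened, promoter, chr4:82505771-82505972: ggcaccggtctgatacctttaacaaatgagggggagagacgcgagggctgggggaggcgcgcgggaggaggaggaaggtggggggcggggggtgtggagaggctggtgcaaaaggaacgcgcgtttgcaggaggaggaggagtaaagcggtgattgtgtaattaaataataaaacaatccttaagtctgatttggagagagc
Nfic opened, internal start, chr10:81430538-81430777: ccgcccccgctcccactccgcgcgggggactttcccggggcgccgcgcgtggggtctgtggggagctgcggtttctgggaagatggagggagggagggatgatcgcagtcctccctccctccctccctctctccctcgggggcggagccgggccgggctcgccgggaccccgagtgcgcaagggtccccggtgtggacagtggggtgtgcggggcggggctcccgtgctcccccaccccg
Nfix opened, intron, chr8:84770769-84771008: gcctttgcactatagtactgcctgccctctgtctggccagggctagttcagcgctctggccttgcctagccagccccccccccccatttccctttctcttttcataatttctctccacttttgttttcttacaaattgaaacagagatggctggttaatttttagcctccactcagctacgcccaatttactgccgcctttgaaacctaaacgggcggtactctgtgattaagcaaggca

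The members did not move as 1 group. Of the 101 NFI peaks, 54 were opened in GFPhigh cells and 47 closed, an opened share of 53.5% (43.8 to 62.9%), against 50.8% of all listed peaks opened and 49.2% closed. By the nearest coding start, Nfib had most of the peaks, and they were mainly closed, with 18 opened and 40 closed (31.0% opened, 20.6 to 43.8%). The peaks of the other members were mainly opened, with 16 of 22 for Nfia (72.7%, 51.8 to 86.8%), 8 of 9 for Nfic (88.9%, 56.5 to 98.0%) and 12 of 12 for Nfix (100%, 75.8 to 100%). For Nfix, taking a count of 0 to allow up to 3 counts, 0 closed peaks of 12 allow a closed share of up to 25%, near the Wilson limit. Together Nfia, Nfic and Nfix had 36 opened and 7 closed peaks, or 83.7% opened (70.0 to 91.9%). The intervals of Nfib and of each other member did not overlap under this assignment, which describes the listed peaks and is no test between genes. With peaks within the gene or 10 kb around it, or with the nearest start of any transcript, the interval of Nfib overlapped those of Nfia and Nfic, and with peaks at most 100 kb from a start or at or above the median level it overlapped that of Nfia.

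**Figure D1:**
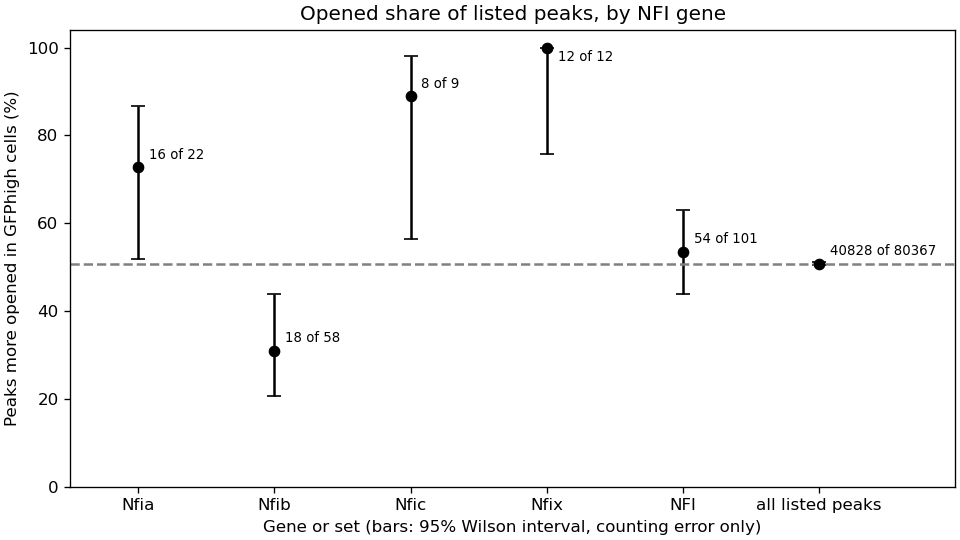
Share of listed peaks more opened in GFPhigh (non-NE) than GFPneg (NE) cells, in percent, for each NFI gene, for all NFI peaks and for all listed peaks. Points are shares with the counts beside them, bars are 95% Wilson intervals and the dashed line is the 50.8% of all listed peaks, with Nfib under it at 31.0% and the other members over it.

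Peaks lay more densely around these genes than over the genome as a whole, and densities of other genes were not computed. Between the midpoints to the neighbouring coding starts, Nfib had 58 peaks in 709 kb, or 8.18 per 100 kb, against 3.05 per 100 kb of the genome without the Y chromosome. The densities were 6.35 per 100 kb for Nfia, 16.7 for Nfic and 18.9 for Nfix. By number of peaks, Nfib stood at rank 14 of the 14580 protein-coding genes with a peak, Nfia at 477, Nfix at 1569 and Nfic at 2350. Among the 652 genes with at least 20 peaks, 247 had a lower opened share than Nfib and 105 a higher one than Nfia. A share such as that of Nfib was therefore common among genes with many listed peaks.

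Most NFI peaks lay away from start sites. The class of a peak was that of its centre, with promoter within 1 kb of the start of any transcript. By this count 10 of the 101 peaks were in promoters (9.90%, 5.47 to 17.3%), 64 in introns (63.4%), 26 intergenic (25.7%) and 1 in an exon of the non-coding Gm12676. Among all listed peaks 16.1% were in promoters, 46.8% in introns, 33.6% intergenic and 3.54% in exons. Of the 10 promoter peaks, 8 were at starts of the member genes themselves, and all 8 were opened, where 70.4% of all listed promoter peaks were opened. The other 2 were a closed peak by the pseudogene Gm11268 upstream of Nfib and an opened peak by Mir1191b within Nfic. Outside promoters, 45 of 91 NFI peaks were opened (49.5%, 39.4 to 59.5%) against 47.1% of all listed peaks outside promoters, and the shares were 30.4% for Nfib, 72.7% for Nfia, 80.0% for Nfic and 100% for Nfix.

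**Figure D2:**
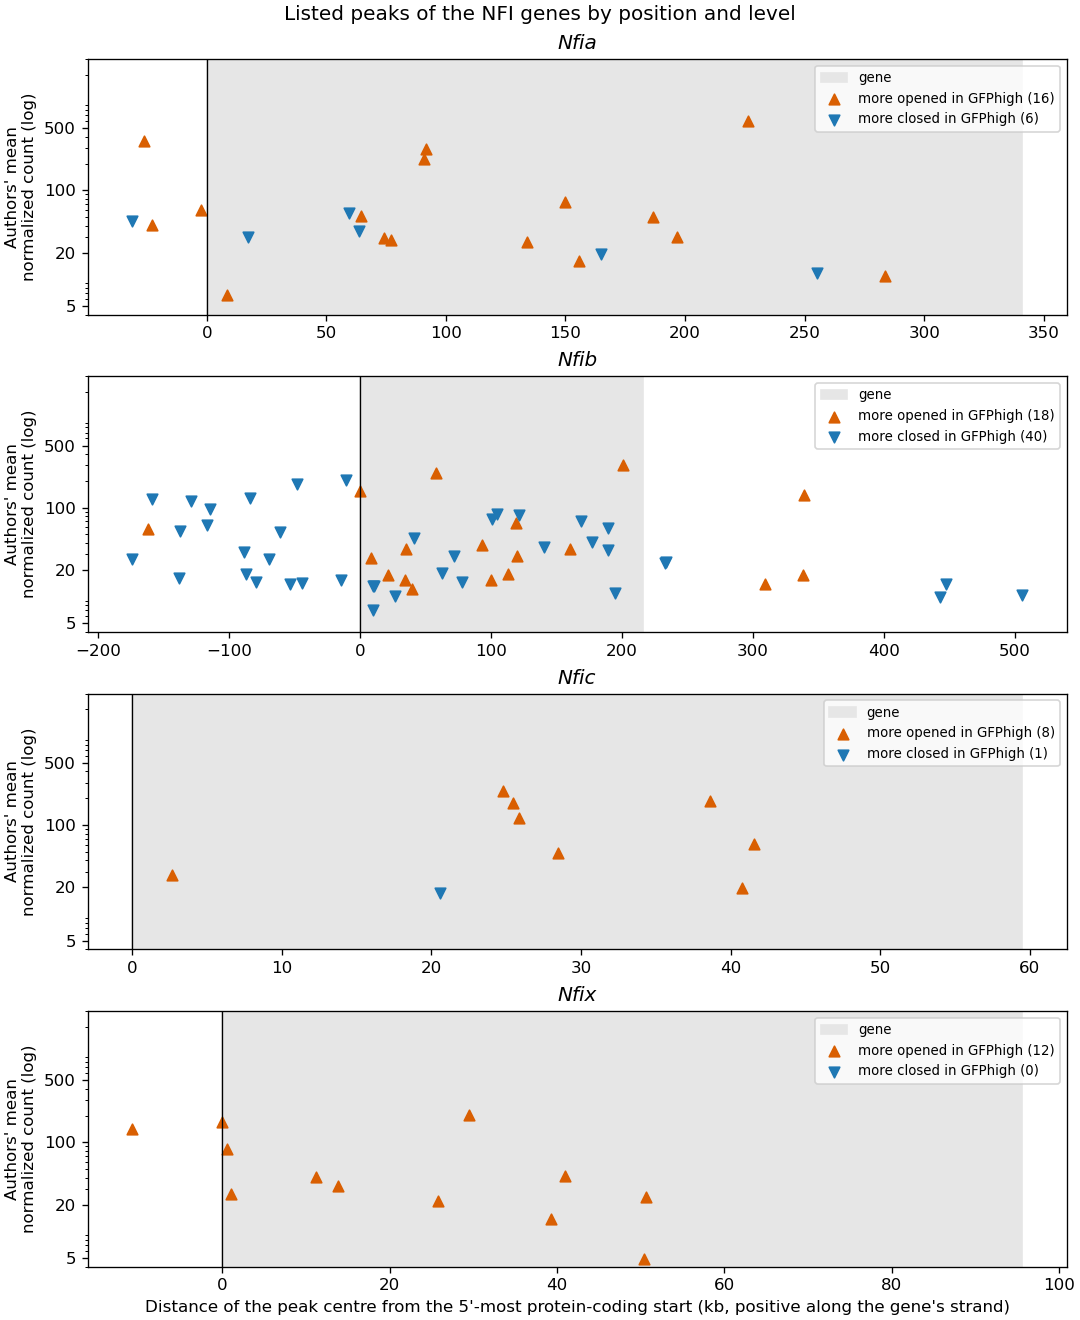
Each listed peak of Nfia, Nfib, Nfic and Nfix, by the distance of its centre from the gene's 5'-most protein-coding start (kb, positive along the strand) and its authors' mean normalized count (log axis). Triangles up are the 54 peaks more opened and triangles down the 47 more closed in GFPhigh cells, grey marks the gene, and of the 40 closed Nfib peaks 18 lie upstream, 17 within and 5 downstream of the gene.

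Nfib (ENSMUSG00000008575.17) lies on the minus strand of chromosome 4 at chr4:82290173-82505770. Its promoter peak, chr4:82505704-82505972, was opened, with a mean normalized count of 156, and its centre lay 68 bp upstream of the nearest start. Closed peaks prevailed upstream, as they also did among the neighbouring genes described further on. With the promoter peak counted, 18 of the 20 upstream peaks were closed, where 49.2% of all listed peaks were closed. The only other opened one was chr4:82667208-82667742 (56.9). The longest run of neighbouring peaks of 1 direction was here, 17 closed peaks in a row over 148 kb, from 10.8 to 159 kb upstream of the gene. Upstream here refers to the basic annotation, since Nfib-212, a longer coding transcript of the comprehensive one, starts at position 82705750 and spans all 20 of these peaks. The closed peak of highest level, chr4:82516428-82516741, was the first of this run, with a mean of 206 in an intron of the non-coding Gm11266. Further peaks of the run were chr4:82553696-82554257 at 185, chr4:82589422-82589827 at 129, chr4:82663895-82664731 at 124 and chr4:82634260-82634699 at 120. Levels in the run ranged from 13.7 to 206, with 11 of its 17 peaks above and 6 below 25.8, the median of all closed peaks.

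Within the Nfib gene the directions alternated, with 13 opened and 17 closed peaks. The second intron alone held 11 of each (introns are counted in the longest basic transcript). Of the opened peaks, chr4:82304114-82305056 in the tenth intron had the highest level of all Nfib peaks, 299, followed by chr4:82447051-82447684 in the second intron at 248. Downstream of the gene 3 peaks were opened and 5 closed, and the opened chr4:82166083-82166556, 339 kb from the nearest start, stood at 140. Direction switched 20 times along the 58 peaks. In the second intron, an opened peak began 525 bp after the closed chr4:82404331-82404606.

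Closed peaks also prevailed among the neighbours of Nfib. Within 0.5 Mb of its start, the peaks of other genes were opened in 8 of 30 cases (26.7%, 14.2 to 44.4%), and between 0.5 and 2 Mb in 25 of 111 (22.5%, 15.7 to 31.1%). The share was 49.2% between 2 and 5 Mb, 30.0% between 5 and 10 Mb, and 50.6% (49.2 to 52.0%) over the rest of chromosome 4. The low opened share was thus not particular to the peaks assigned to Nfib. The Nfib locus is known to be gained in some mouse SCLC tumors. Copy number was not measured here, and the median level of all peaks was 13.7 normalized counts per 100 bp within 0.5 Mb of the start, 11.2 between 0.5 and 2 Mb, 10.3 between 2 and 5 Mb, 11.6 between 5 and 10 Mb and 12.9 beyond 10 Mb. By direction, closed peaks had a median of 13.9 within 0.5 Mb and 11.1 beyond 10 Mb, and opened peaks 13.4 and 16.3.

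**Figure D3:**
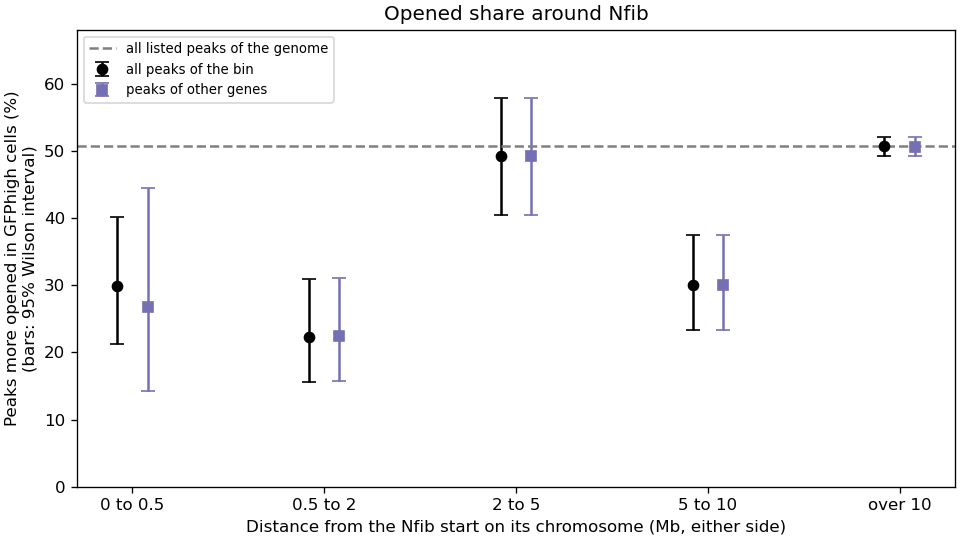
Share of listed peaks of chromosome 4 more opened in GFPhigh cells (percent, with 95% Wilson intervals) in bins of distance from the Nfib start in Mb. Circles are all peaks, squares the peaks of genes other than the NFI members, and the dashed line is the 50.8% of all listed peaks, with low shares up to 2 Mb and again from 5 to 10 Mb.

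Nfia (ENSMUSG00000028565.18) lies on the plus strand of the same chromosome at chr4:97777608-98118874, and its peaks showed another picture. No listed peak was centred within 1 kb of its starts, and the nearest, chr4:97775124-97775293, was opened at a level of 60.1 with its centre 2.40 kb upstream. These starts are those of the basic annotation, and the longer coding transcript Nfia-208 of the comprehensive one starts at position 97772734 and spans this peak. The highest level of any NFI peak, 609, belonged to the opened chr4:98003636-98004652 in the fourth intron, 226 kb from the nearest start. Next came the opened chr4:97751037-97751660, 26.3 kb upstream, at 361, and a neighbouring pair in the second intron, chr4:97868909-97869348 at 293 and chr4:97868239-97868806 at 223. The 16 opened peaks ranged from 6.60 to 609 and the 6 closed ones from 11.9 to 55.6, with chr4:97836916-97837204 at the top, so the ranges overlapped. In the second intron 9 peaks were opened and 4 closed. There, the closed chr4:97841274-97841543 and the opened chr4:97841727-97842158 were only 183 bp apart, the closest pair of opposite direction at any NFI gene. The longest run at Nfia was 8 opened peaks over 91.8 kb.

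Nfic (ENSMUSG00000055053.18), on the minus strand at chr10:81396186-81455635, had all 9 peaks within the gene. Of its 8 opened peaks, 3 lay at internal starts, chr10:81430526-81431195 at 242, chr10:81429954-81430459 at 176 and chr10:81427068-81427225 at 48.5, each within 1 kb of an Nfic start. The opened peak by Mir1191b, chr10:81416642-81417328, stood at 186. The only closed one of these 9 peaks, chr10:81434978-81435067, had a level of 17.3, the lowest of the 9. Within the body of Nfic and 10 kb around it there were 11 listed peaks, of which 9 were opened (81.8%).

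Nfix (ENSMUSG00000001911.16), on the minus strand at chr8:84704712-84800344, had no closed peak. The 4 peaks at its starts had levels from 21.9 to 169. Among them, near its upstream starts, were chr8:84799496-84800015 at 83.4 and chr8:84799209-84799368 at 26.5, and at an internal start chr8:84774493-84774601 at 21.9. The highest level, 205, was that of chr8:84770620-84771156 in the second intron, and chr8:84810931-84811267, 10.8 kb upstream, stood at 140. The stretch nearest to an Nfix start, 63.4 kb, is shorter than the gene, 95.6 kb, so the assignment leaves out a part of the gene. Within the body and 10 kb around it there were 25 listed peaks, and all 25 were opened.

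Since wider peaks collect more reads, levels were also compared per 100 bp. The median was 13.9 normalized counts per 100 bp for the NFI peaks and 12.2 for all listed peaks. Opened peaks had medians of 12.0 for Nfia, 12.4 for Nfib, 29.8 for Nfic and 17.1 for Nfix, against 14.4 for all opened peaks. Closed peaks had medians of 13.6 for Nfib and 12.8 for Nfia, against 10.8 for all closed peaks. The opened Nfic peaks stood highest, and the opened Nfia peaks varied most, with quartiles at 8.73 and 36.3. Base composition moved with this, as the median GC content of the central 200 bp was 64.0% for opened Nfic peaks, 55.2% for Nfix, 45.0% for opened Nfia peaks and 50.8% for all opened peaks, and its part was not tested.

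**Figure D4:**
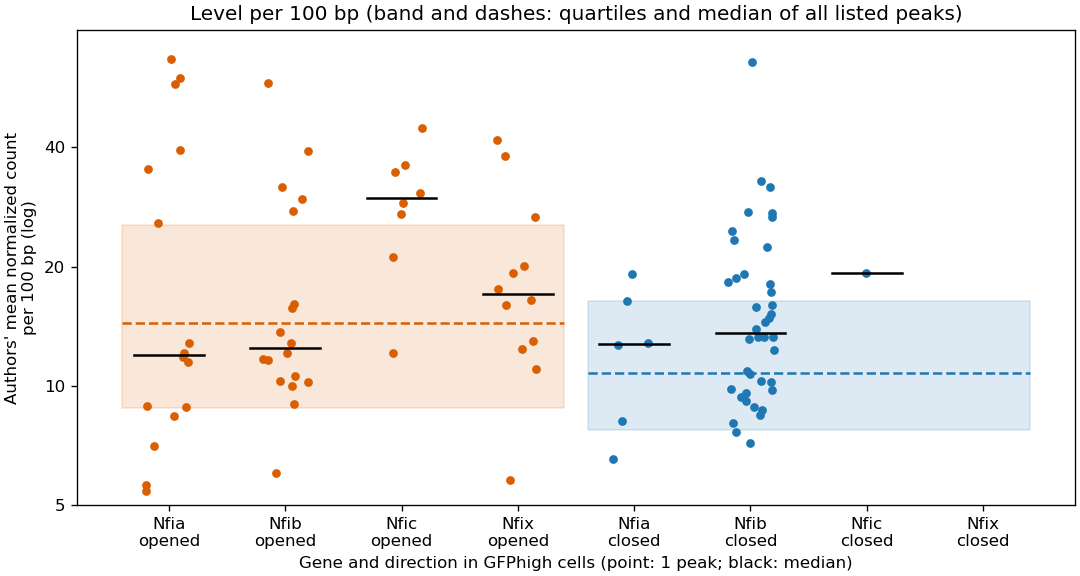
Authors' mean normalized count per 100 bp (log axis) of each NFI peak by gene and direction in GFPhigh cells, with the median as a black line. Coloured bands and dashes are the quartiles and median of all opened (median 14.4) and all closed peaks (10.8), and the opened Nfic peaks have a median of 29.8.

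The central 200 bp of each peak were then searched for exact strings on both strands. For NFI these were CTTGGCA, or TTGGC and GCCAA separated by 5 bases. A site was found in 7 of the 101 NFI peaks (6.93%, 3.40 to 13.6%) and in 6.69% of all listed peaks, so the members did not stand out from the background. The split by direction was 5 of 47 closed peaks (10.6%, 4.63 to 22.6%) and 2 of 54 opened ones (3.70%, 1.02 to 12.5%), while all listed peaks had 5.22% of closed and 8.10% of opened peaks with a site. The 5 closed ones were all Nfib peaks, where Nfib gave 40 of the 47 closed NFI peaks. Closed peaks with a site are shown here with the opened ones of Nfia and Nfix, as 60 bases around the site in capitals. They are places where NFI sites lie at the NFI genes themselves.
Nfib closed NFI, chr4:82336801-82336860: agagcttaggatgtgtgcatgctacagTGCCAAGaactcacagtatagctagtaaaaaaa
Nfib closed NFI, chr4:82464491-82464550: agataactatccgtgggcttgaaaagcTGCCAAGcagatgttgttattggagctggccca
Nfib closed NFI, chr4:82520111-82520170: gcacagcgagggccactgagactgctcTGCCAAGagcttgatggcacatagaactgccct
Nfib closed NFI, chr4:82549927-82549986: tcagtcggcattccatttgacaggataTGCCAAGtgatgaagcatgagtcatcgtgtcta
Nfia opened NFI, chr4:97869014-97869073: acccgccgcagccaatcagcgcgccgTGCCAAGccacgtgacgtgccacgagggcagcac
Nfix opened NFI, chr8:84811083-84811142: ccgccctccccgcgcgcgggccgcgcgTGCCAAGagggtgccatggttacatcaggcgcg
The remaining closed peak, in the second intron of Nfib, held 4 sites, the last pair of which lies on opposite strands with 5 bases between them, in the reverse order of the palindrome, which this window does not hold. Of all listed peaks, 3 held as many, or 0.00373%. It was chosen after its sites were seen, and its central 200 bases are given with the sites in capitals.
Nfib closed, 4 NFI sites, chr4:82404369-82404568: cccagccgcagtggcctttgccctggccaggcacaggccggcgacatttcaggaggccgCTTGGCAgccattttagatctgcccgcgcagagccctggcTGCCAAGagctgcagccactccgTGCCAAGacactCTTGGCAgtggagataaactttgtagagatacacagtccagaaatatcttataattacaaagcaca

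Strings of other transcription factor families were searched in the same way. RBPJ is the DNA-binding partner of Notch, and its string GTGGGAA was found in 5 of 54 opened NFI peaks (9.26%, 4.02 to 19.9%) and in 0 of 47 closed ones, which allows a share of up to 6.38% by the limit of 3 counts and 7.56% by the Wilson interval. Over all listed peaks the shares were 5.74% of opened and 4.02% of closed peaks. Over the whole peak, the string was found in 5 opened (9.26%) and 2 closed NFI peaks (4.26%), near the 9.17% and 5.68% of all opened and closed peaks. The 5 peaks are shown with 60 bases around the string, since GFPhigh cells are the Notch-active ones.
Nfia opened RBPJ, chr4:97841830-97841889: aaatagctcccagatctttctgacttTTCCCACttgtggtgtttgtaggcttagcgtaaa
Nfia opened RBPJ, chr4:97933277-97933336: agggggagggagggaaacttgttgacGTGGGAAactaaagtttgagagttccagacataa
Nfia opened RBPJ, chr4:98004129-98004188: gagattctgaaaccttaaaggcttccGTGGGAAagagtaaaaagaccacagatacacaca
Nfib opened RBPJ, chr4:82166203-82166262: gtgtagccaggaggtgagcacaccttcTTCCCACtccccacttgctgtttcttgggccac
Nfib opened RBPJ, chr4:82667420-82667479: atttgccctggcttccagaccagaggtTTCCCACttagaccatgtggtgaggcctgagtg
FOX factors, which open chromatin in lung epithelium, had TGTTTAC in 6 opened NFI peaks (11.1%), of which 4 were Nfia peaks, and in 1 closed peak (2.13%), against 6.84% and 9.70% of all opened and closed peaks. AP-1, the dimer of Fos and Jun proteins, had TGANTCA in 5 opened (9.26%) and 10 closed peaks (21.3%), against 10.6% and 26.4%. TEAD factors, the partners of YAP1, had CATTCC in 5 opened (9.26%) and 4 closed peaks (8.51%), against 18.1% and 8.77%. NKX2 factors, among them the lung regulator NKX2-1, had CACTTAA or CACTTGA in 5 opened (9.26%) and 7 closed peaks (14.9%), against 10.5% and 7.72%. For each of the NFI, RBPJ, FOX, AP-1, TEAD and NKX2 strings, the share among all listed peaks of the same direction lay within the Wilson interval of the NFI peaks in the central 200 bp. Over the whole peak this did not hold for TEAD, found in 7 of 54 opened NFI peaks (13.0%, 6.42 to 24.4%) against 25.4% of all opened peaks. By gene, these were 5 of 18 opened peaks for Nfib (27.8%), 1 of 16 for Nfia, 1 of 8 for Nfic and 0 of 12 for Nfix. Opened NFI peaks had a median width of 252 bp against 300 bp for all opened peaks, and the part of width was not tested.

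Genes related to NFI were described by the same counts. The 11 genes taken as reported NFI targets had 44 opened and 46 closed peaks (48.9% opened, near the 50.8% of all listed peaks), with 5 genes mostly opened and 6 mostly closed. Without Hes1, which gave 37 of these peaks, 18 of 53 were opened (34.0%). Hes1, the Notch target that carries the reporter and is also among the club cell markers above, had 26 opened and 11 closed peaks, Fabp7, a fatty acid binding protein of glia, 3 opened and none closed, and Ezh2, the histone H3K27 methyltransferase, 2 closed and none opened. Insc, a regulator of spindle orientation, had 4 opened and 13 closed peaks, and Bbx 2 and 11. Insc and Bbx thus gave most of the closed peaks of this list outside Hes1. The 5 factors that act with or upstream of NFI had 110 opened and 75 closed peaks (59.5% opened, against 50.8% of all listed peaks). Without Sox9, 49 of 105 were opened (46.7%). Of these factors, Sox9, a regulator of lung progenitors and glia, had 61 opened of 80, Sox2 18 of 33, Nkx2-1 6 of 11, Foxa2 19 of 45 and Foxa1 6 of 16.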

How the data were processed

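ATAC-seq libraries of GFPhigh and GFPneg cells were grouped by the GFP status in the labels. Per the labels and the study's methods, the authors aligned reads to mm10 with Bowtie2 2.3.4.1, called peaks with MACS2, merged them over samples and compared the groups with DESeq2 1.28.1, keeping peaks past limits on adjusted p and fold change. The deposited signal used here is the authors' mean of size-factor normalized counts over all libraries. The deposited tables also hold the authors' fold changes, their standard errors, test statistics and p-values, none of which were used. Depth per library is unknown, and intervals cover counting error only.

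Peaks were assigned to the nearest protein-coding start of the basic GENCODE annotation of GRCm38 (mm10) and classed by their centre, with promoters within 1 kb. Sequences came from GRCm38.p6, and positions are 1-based. Strings were searched in the central 200 bp. No test was planned or run, and alternatives were other assignments, merging, a low-level filter, promoter width and motif strings. For each member, its promoter peaks and its opened and closed peak of highest level were named by rule, except for 1 Nfix promoter peak whose position and sequence are not reported here, and other peaks were named after their values were seen. Members and lists (NFI targets, cofactors, cell type markers) were chosen with earlier results of these data known. Assignment and motif search were tested on simulated data. Python 3.11.15, numpy 2.4.6, pandas 2.3.3, scipy 1.17.1 and matplotlib 3.10.9 were used.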

Additional observations from a re-analysis of the deposited data

How the results depend on the processing

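Of 44 alternative values, 33 lay within the Wilson or median interval of the value reported and 11 outside it, among them the 3 gene lists without Hes1 or Sox9, added after the data were seen together with the whole-peak search for RBPJ. The same search for TEAD and the other strings was also chosen after the data were seen. With peaks inside a gene or within 10 kb of it, the opened share of NFI peaks was 72.2% in place of 53.5%, and that of Nfib 45.2% in place of 31.0%. With the nearest start of any transcript, the share was 76.9%, over 39 peaks only, and Nfib then had 7 peaks (3 opened, 42.9%), fewer than Nfia with 14 and Nfix with 12. Without Nfib the share was 83.7%. Above the median level of all listed peaks, the share of Nfic was 100%. Promoters within 3 kb took 20.8% of NFI peaks and 24.7% of all listed peaks. NFI sites were found in 17.8% of NFI peaks with the shorter string TTGGCA (15.8% of all listed peaks) and in 0% with the palindrome alone (0.0684%). The comprehensive annotation, added after the data were seen, gave 50%. In each setting with a share per gene, Nfib had the lowest opened share of the members, but its interval overlapped that of Nfia in 4 of them, also within 100 kb of the start and above the median level. No paired analysis was possible because the tables hold 1 row per peak for the whole comparison and no column per replicate. For the same reason no library could be left out, and depth per library cannot be weighed.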
